A study of Macaca fascicularis with 7 samples.

Results

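This account covers 10 genes that act in the shortening of mRNA poly(A) tails: BTG4 and 9 subunits of the CCR4-NOT deadenylase, CNOT1, CNOT2, CNOT3, CNOT6, CNOT6L, CNOT7, CNOT8, CNOT10 and CNOT11. They were chosen by symbol, and all 10 were found among the 28161 usable gene rows of a table of read counts from cynomolgus monkey (Macaca fascicularis) oocytes. The study compared metaphase II (MII) oocytes matured in culture (in vitro matured, IVM, 3 libraries), MII oocytes that matured inside the animal (in vivo, IVO, 2 libraries) and immature oocytes with an intact germinal vesicle (GV, 2 libraries), whose meiosis has not yet resumed. All 7 libraries are labelled as wild type, the IVM libraries as treated and the IVO and GV libraries as control. The labels used here give no age or hormone treatment of the animals and no number of oocytes per library. They also do not say whether libraries came from separate animals, so p-values measure only the spread between these libraries, which may be technical.

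Most eukaryotic mRNAs carry a poly(A) tail, and its removal by the CCR4-NOT complex is usually the first step of their decay. CNOT1 is the scaffold of the complex. CNOT2 and CNOT3 form its NOT module, and CNOT10 and CNOT11 bind the amino-terminal end of the scaffold. The exonuclease activity comes from the CAF1-type paralogues CNOT7 and CNOT8 and from the CCR4-type paralogues CNOT6 and CNOT6L, of which a complex carries a single member of each kind. BTG4, a BTG/TOB family protein made mainly in oocytes, binds CNOT7 and CNOT8. In mice, loss of Btg4 leaves maternal mRNAs undegraded after maturation and embryos arrest early, loss of Cnot6l also slows this clearance, and in humans variants of BTG4 have been linked to failed cleavage of the zygote.

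Library totals ranged from 22901970 to 29245733 counts, and the 10 genes held between 65 counts (CNOT3 in an IVM MII library) and 255322 counts (BTG4 in another). All 10 passed the filter on low counts and were among 16374 genes tested. The summed level of 12 oocyte markers was 21549 to 23704 CPM in IVM MII, 19817 to 25528 CPM in IVO MII and 15268 to 16973 CPM in GV. Single markers differed in direction. DPPA3 had 6185 to 14064 CPM in IVM MII, 9605 to 17576 CPM in IVO MII and 2728 to 3265 CPM in GV, and DDX4 was also lowest in GV. FIGLA, NLRP5 and ZAR1 were higher in GV than in every MII library, and the other markers did neither. CPM are counts scaled to a common library size, here after TMM (trimmed mean of M values) scaling between libraries. Of 16 cumulus and granulosa markers 13 were found, with summed levels of 98.2 to 219 CPM in IVM MII, 64.3 to 100 CPM in IVO MII and 18.1 to 19.8 CPM in GV. PTX3 of that list was at 0 in all libraries, and FOXL2, AMHR2, INHA and STAR stayed at or below 0.537 CPM, while TNFAIP6, FSHR and HAS2 made up most of the sums. Blood markers summed to at most 0.917 CPM. Of the 5 stroma, theca and endothelium markers found, VWF at 991 to 1140 CPM made up nearly all of the 1006 to 1154 CPM in GV, against 46.9 to 79 CPM for the list in IVM MII and 58.7 to 71.1 CPM in IVO MII. The part that these markers have in the results below was not tested.

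Per the file header, alignments of the GV oocytes lay in a different folder from those of the MII oocytes, so wherever GV is compared, folder and stage cannot be told apart. Reverse transcription was primed on poly(A) tails, the substrate of the enzymes described here, and whether tail length moved any count was not tested. Nor can fewer oocytes with a transcript be told apart from less of it in each oocyte.

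BTG4 transcripts stood far above those of every CCR4-NOT subunit and were several times more abundant in both kinds of MII oocyte than in GV oocytes. BTG4 lies on chromosome 14, bases 107454699 to 107476179, minus strand, with 9 exons after merging of transcripts (all coordinates are those of the deposited table, whose genome build is not given in the sources used here). It had 12392, 7413 and 9602 CPM in the IVM MII libraries, 12989 and 5642 CPM in the IVO MII libraries, and 1736 and 2125 CPM in the GV libraries. Both kinds of MII oocyte lay above GV with no overlap, while the IVM MII values fell between the 2 IVO MII values. These levels amounted to 0.659% to 0.949% of all counts in IVM MII, 0.555% to 1.08% in IVO MII and 0.247% to 0.293% in GV. Ranked by level per length (TPM, counts per gene length brought to a common sum in every library), BTG4 was between place 13 and place 20 of all rows in IVM MII libraries, at places 12 and 20 in IVO MII and at places 52 and 48 in GV.

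BTG4 rose over GV in IVO MII, with a log2 fold change equal to 2.27 (SE 0.47, edgeR adjusted p = 0.00911) and a fold of 4.83. The call was lost without GV replicate 1, at edgeR adjusted p = 0.0658, and without IVO MII replicate 1 the log2 fold change was 1.54. In IVM MII its rise was 2.34 (SE 0.45, edgeR adjusted p = 0.00511), a fold of 5.08. Between IVM and IVO MII the log2 fold change was 0.07 (SE 0.41, 95% interval -0.86 to 1.01, edgeR adjusted p = 0.946), which turned to -0.05 under upper quartile scaling. That interval is wide in both directions, so the data do not show that the levels were alike.

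**Figure D1:**
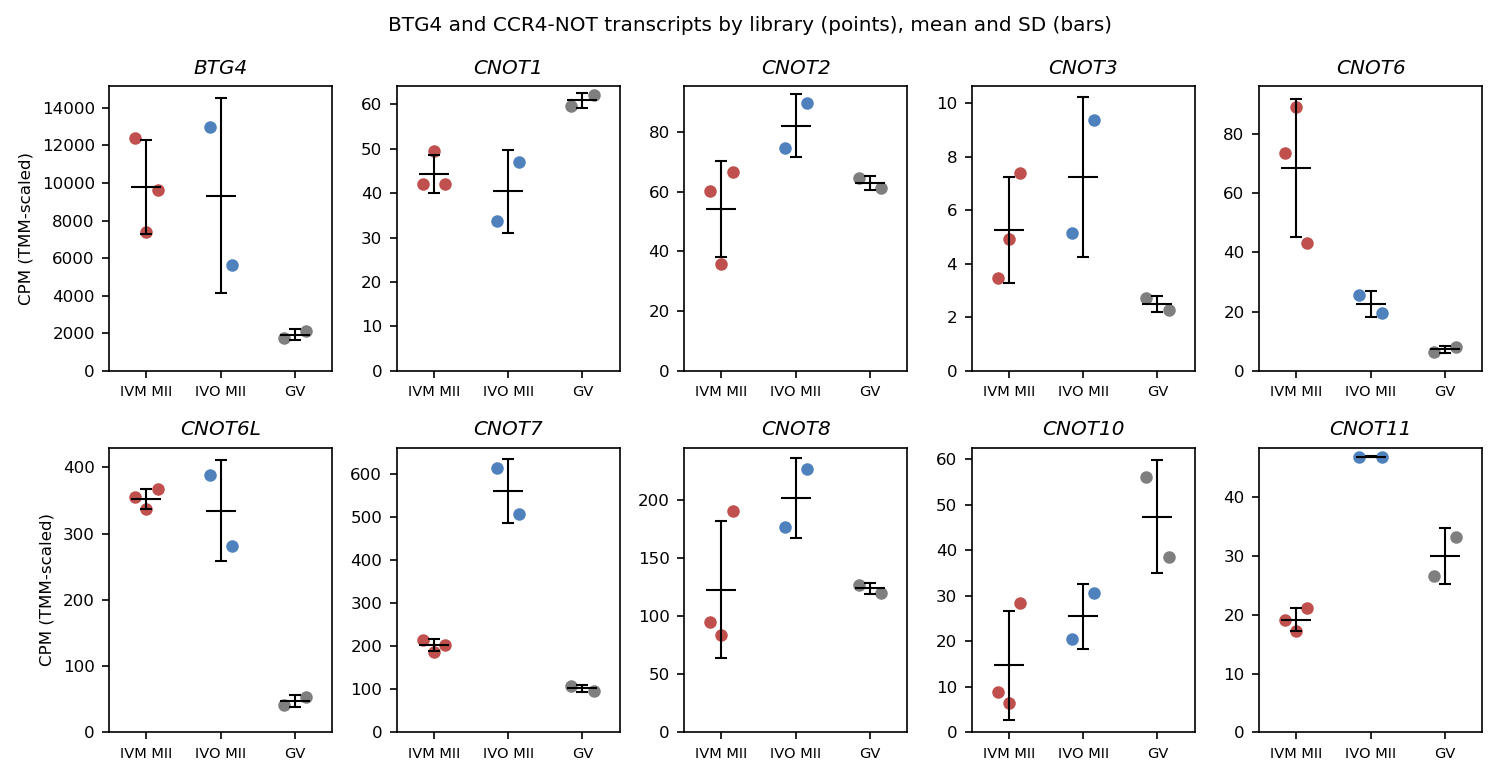
CPM (y axis, TMM-scaled, each panel with its own scale from 0) of the 10 genes in every library (points) of IVM MII, IVO MII and GV oocytes, with the group mean and SD (bars; n = 3, 2 and 2). BTG4, CNOT3, CNOT6L, CNOT6 and CNOT7 were higher in every MII library than in GV. CNOT2, CNOT7 and CNOT11 were lower in every IVM MII library than in both IVO MII libraries.

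Of the CAF1-type exonucleases, CNOT7 differed among all 3 kinds of oocyte, whereas its paralogue CNOT8 passed the test in none of the comparisons. CNOT7 (chromosome 8, bases 17217739 to 17235466, minus strand) had 216, 188 and 204 CPM in IVM MII, 614 and 508 CPM in IVO MII, and 109 and 97.2 CPM in GV. No group overlapped another: IVO MII was highest, IVM MII intermediate and GV lowest. CNOT7 was lower in IVM MII than in IVO MII, with a log2 fold change at -1.47 (SE 0.27, 95% interval -2.08 to -0.86, edgeR adjusted p = 0.0401), a fold of 2.77. Against GV it rose by 0.97 for IVM MII (SE 0.28, edgeR adjusted p = 0.0265) and by 2.44 for IVO MII (SE 0.31, edgeR adjusted p = 0.00211).

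Its difference between IVM and IVO MII kept its direction in all 16 alternative settings, with log2 fold changes from -1.68 to -1.33, but its call was held in 9 of them. The edgeR adjusted p was 0.125 and 0.14 without IVM MII replicates 1 and 2, 0.0666 and 0.0909 without IVO MII replicates 1 and 2, 0.0866 and 0.0904 without GV replicates 1 and 2, and 0.0917 in a fit of only the groups compared. The rise of CNOT7 in IVM MII over GV was 0.25 on the log2 scale with library totals alone (edgeR adjusted p = 0.45) and missed the threshold with RLE scaling (0.0544), without GV replicates 1 and 2 (0.171 and 0.228) and without IVM MII replicates 1 and 2 (0.0758 and 0.0501).

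CNOT8 (chromosome 6, bases 154213064 to 154231830, plus strand) had 94.7, 84 and 191 CPM in IVM MII, 177 and 227 CPM in IVO MII, and 127 and 120 CPM in GV. The IVM MII libraries were split: replicate 3 reached the IVO MII levels, and the others lay below GV. The log2 fold change was -0.71 between IVM and IVO MII (SE 0.39, edgeR adjusted p = 0.333), 0.71 between IVO MII and GV (SE 0.44, edgeR adjusted p = 0.254) and -0.01 between IVM MII and GV (SE 0.40, edgeR adjusted p = 0.993).

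Both CCR4-type exonuclease genes rose in MII oocytes. CNOT6L (chromosome 5, bases 56665036 to 56767717, plus strand) had 355, 337 and 367 CPM in IVM MII, 389 and 281 CPM in IVO MII, and 41 and 53.7 CPM in GV. All MII libraries lay above both GV libraries, and the IVM MII values fell within the IVO MII range. CNOT6L rose over GV by 2.90 on the log2 scale for IVM MII (SE 0.33, edgeR adjusted p = 0.00138) and by 2.82 for IVO MII (SE 0.34, edgeR adjusted p = 0.0021), and both calls were held in all 16 alternative settings. Between IVM and IVO MII its log2 fold change was 0.08 (SE 0.29, 95% interval -0.59 to 0.74), which became -0.04 under upper quartile scaling.

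CNOT6 (chromosome 6, bases 180518794 to 180607604, plus strand) was the scarcer of the CCR4-type paralogues in every library. It had 73.4, 88.9 and 43 CPM in IVM MII, 25.6 and 19.4 CPM in IVO MII, and 6.47 and 8.03 CPM in GV. The groups did not overlap, and their order differed from that of CNOT7: IVM MII was highest. CNOT6 rose over GV by 3.24 in IVM MII (SE 0.46, edgeR adjusted p = 0.00188), a fold of 9.43, with the call held in all 16 alternative settings.

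In IVO MII, CNOT6 rose over GV by 1.63 (SE 0.45, edgeR adjusted p = 0.0277), a fold of 3.10. That call was lost without GV replicate 1 or 2 (edgeR adjusted p = 0.201 and 0.127), without IVO MII replicate 1 (0.0959) and with library totals alone (log2 fold change 0.99, edgeR adjusted p = 0.12). The difference between IVM and IVO MII, 1.60 on the log2 scale (SE 0.42, 95% interval 0.65 to 2.56), did not pass the test (edgeR adjusted p = 0.088).

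Among the subunits without catalytic activity, none passed the edgeR test with every library and TMM scaling. CNOT11 (chromosome 13, bases 5636811 to 5653325, plus strand) came closest between IVM and IVO MII. It had 19.2, 17.3 and 21.1 CPM in IVM MII, 46.9 and 46.8 CPM in IVO MII, and 26.6 and 33.3 CPM in GV. Each IVM MII library was below both GV libraries, and each IVO MII library was above them. The log2 fold change was -1.29 between IVM and IVO MII (SE 0.33, 95% interval -2.03 to -0.54, edgeR adjusted p = 0.0812), 0.64 between IVO MII and GV (SE 0.36, edgeR adjusted p = 0.212) and -0.64 between IVM MII and GV (SE 0.33, edgeR adjusted p = 0.153). DESeq2 called CNOT11 lower in IVM MII than in IVO MII (-1.33, DESeq2 adjusted p = 0.00167) and than in GV (-0.78, DESeq2 adjusted p = 0.0432).

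CNOT10 (chromosome 2, bases 14605283 to 14705849, minus strand), which binds the scaffold together with CNOT11, had 8.96, 6.55 and 28.5 CPM in IVM MII, 20.4 and 30.5 CPM in IVO MII, and 56.1 and 38.5 CPM in GV. Every MII library lay below both GV libraries, and IVM MII replicate 3 was again at the level of IVO MII while the other IVM MII libraries were lower. The log2 fold change between IVM MII and GV was -1.69 (SE 0.61, edgeR adjusted p = 0.0588), and it passed the test in 8 of 16 alternative settings, among them without IVM MII replicate 3 (-2.65, edgeR adjusted p = 0.00403) with DESeq2 (-1.85, DESeq2 adjusted p = 0.0106), with limma voom (-1.93, limma adjusted p = 0.0193) and with the newer edgeR fit (-1.68, edgeR adjusted p = 0.0331). It was -0.89 between IVO MII and GV (SE 0.68, edgeR adjusted p = 0.354) and -0.79 between IVM and IVO MII (SE 0.61, edgeR adjusted p = 0.486).

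The scaffold gene CNOT1 (chromosome 20, bases 46568463 to 46698657, minus strand) had 42, 49.4 and 42 CPM in IVM MII, 33.7 and 47 CPM in IVO MII, and 59.7 and 62.1 CPM in GV. All MII values were below those of GV, by log2 fold changes of -0.45 for IVM MII (SE 0.32, edgeR adjusted p = 0.289) and -0.59 for IVO MII (SE 0.35, edgeR adjusted p = 0.235), and the 2 kinds of MII oocyte overlapped. CNOT2 (chromosome 11, bases 69262515 to 69373995, plus strand) had 60.3, 35.9 and 66.5 CPM in IVM MII, 74.7 and 89.6 CPM in IVO MII, and 64.6 and 61.2 CPM in GV. Its log2 fold change of 0.39 between IVO MII and GV (SE 0.39) became -0.23 with library totals alone, that between IVM MII and GV was -0.21 (SE 0.35), and that between IVM and IVO MII was -0.60 (SE 0.35).

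CNOT3 (chromosome 19, bases 55001213 to 55019214, plus strand) was the least abundant of the 10 genes. It had 3.49, 4.94 and 7.41 CPM in IVM MII, 5.15 and 9.37 CPM in IVO MII, and 2.72 and 2.28 CPM in GV. MII libraries lay above GV, with log2 fold changes of 1.08 for IVM MII (SE 0.60, edgeR adjusted p = 0.19) and 1.54 for IVO MII (SE 0.65, edgeR adjusted p = 0.107), and the IVM and IVO MII values overlapped. Of its exon bases, 66 are shared with LENG1 on the other strand, so some of these reads may belong to that gene. In the deposited table, none of the other 9 genes shares exon bases with another row.

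**Figure D2:**
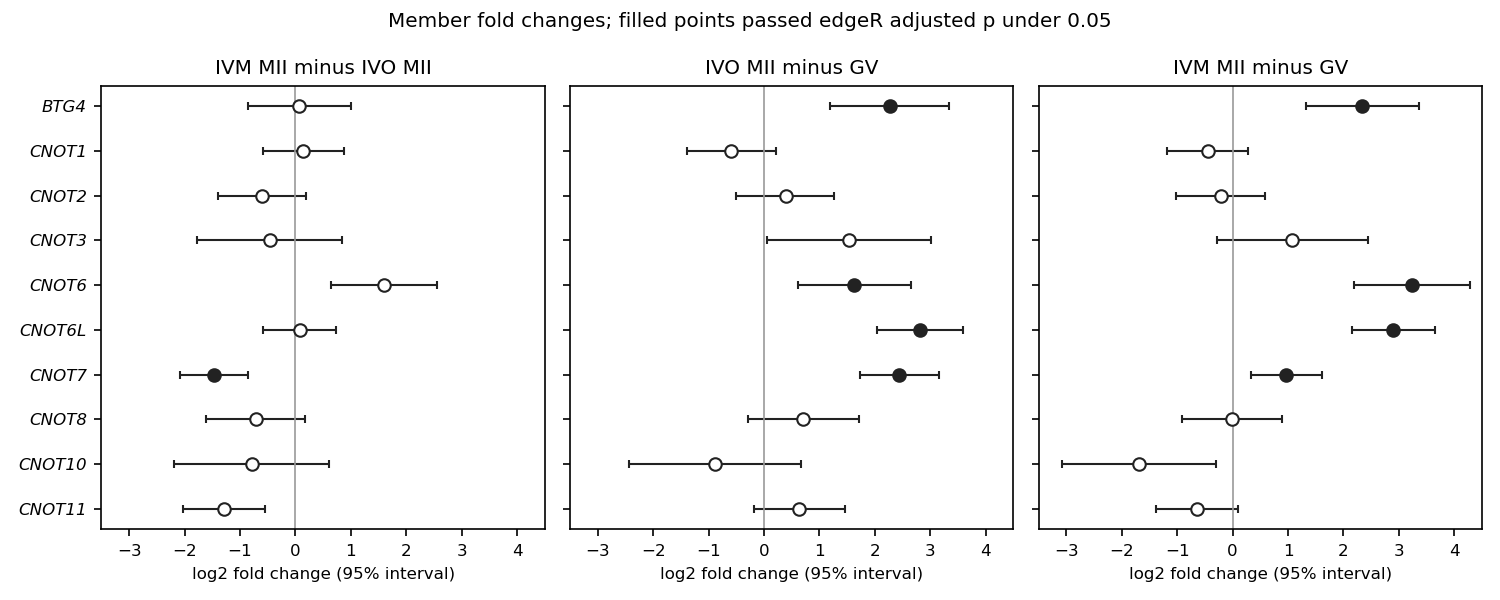
Log2 fold changes (x axis, with 95% intervals from edgeR) of the 10 genes (y axis) for IVM MII minus IVO MII, IVO MII minus GV and IVM MII minus GV; filled points passed at an adjusted p under 0.05. BTG4, CNOT6, CNOT6L and CNOT7 lie to the right of 0 in both comparisons with GV, as does CNOT3 with unfilled points. CNOT7 at -1.47 is the filled point between IVM and IVO MII.

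Read against all tested genes, 4 of the 10 genes (BTG4, CNOT6, CNOT6L and CNOT7) were called in IVO MII over GV, where 28.1% of 16374 genes were: 4 rose and 0 fell, against 14.6% and 13.5% of all genes. The same 4 were called in IVM MII over GV, where 36.3% of all genes were: 4 rose and 0 fell, against 18.5% and 17.8%. Both comparisons use the same GV libraries. At an unadjusted edgeR p under 0.05, 5 were higher and 0 lower in IVO MII than in GV (20.2% and 21.8% of all genes), and 4 were higher and 1 lower in IVM MII than in GV (23.5% and 24%). With DESeq2, 4 rose and 0 fell in IVO MII over GV (17.5% and 20.3% of all genes), and 4 rose and 2 fell (CNOT10 and CNOT11) in IVM MII over GV (21% and 22.9%). Between IVM and IVO MII, 1 of the 10 was called, where 1.47% of all genes were: 0 were higher and 1 lower in IVM MII, against 0.892% and 0.58% of all genes. At an unadjusted edgeR p under 0.05 there were 1 higher (CNOT6) and 2 lower (CNOT7 and CNOT11) in IVM MII, where 12.3% of all genes were higher and 8.84% lower. These 3 were the genes that DESeq2 called, where it called 7.48% of all genes higher and 4.8% lower.

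The median log2 fold change of the 10 genes was 1.12 between IVO MII and GV, 0.48 between IVM MII and GV and -0.53 between IVM and IVO MII, against -0.16, -0.10 and 0.00 for all tested genes. The libraries of the compared groups did not overlap for 10 of 10 genes between IVO MII and GV (72.8% of all genes), with 8 higher and 2 lower in IVO MII (32% and 40.8% of all genes). They did not overlap for 8 of 10 between IVM MII and GV (69.1%), with 5 higher and 3 lower in IVM MII (31.5% and 37.5%). Between IVM and IVO MII this held for 4 of 10 (33.8%), with 1 higher and 3 lower in IVM MII (17.8% and 16%). With library totals alone the median of all tested genes moved to -0.78 between IVO MII and GV and to -0.80 between IVM MII and GV. Under that scaling 3 of the 10 genes (BTG4, CNOT6L and CNOT7) rose and 0 fell in IVO MII. Of all 16374 tested genes, 1340 rose and 3123 fell there. In IVM MII, BTG4, CNOT6 and CNOT6L rose and CNOT1, CNOT10 and CNOT11 fell, where 1608 of all tested genes rose and 4170 fell. With RLE scaling, 3 rose (BTG4, CNOT6 and CNOT6L) and CNOT10 fell in IVM MII, where 2677 of all tested genes rose and 3247 fell. Relative to the median of all genes, BTG4 was at 2.43 in IVO MII and 2.44 in IVM MII with TMM scaling, against 2.38 and 2.41 with library totals alone. Relative to that median, CNOT7 was at 2.60 in IVO MII and 1.07 in IVM MII with TMM scaling, against 2.58 and 1.05 with library totals.

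The number of the genes called between IVM and IVO MII changed whichever library was left out, and was highest without IVM MII replicate 3. Without it, 5 of the 10 genes were called: CNOT6 was higher (log2 fold change 1.84, edgeR adjusted p = 0.0288), and CNOT7 (-1.49, 0.0271), CNOT8 (-1.19, 0.0447), CNOT10 (-1.73, 0.0476) and CNOT11 (-1.38, 0.0458) were lower in IVM MII. Of all 16189 genes tested in that setting 1277 were called, against 241 of 16374 with every library. Leaving out any of the other 6 libraries in turn called 0 of the 10 genes.

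Levels of the member subunits were set against each other as TPM, which divides counts by gene length. In IVM MII the order was CNOT7 at 79.9 ± 10.8 TPM (SD, n = 3), CNOT6L at 64.0 ± 10.9, CNOT8 at 48.0 ± 29.5, CNOT2 at 23.6 ± 8.69, CNOT6 at 19.0 ± 5.91, CNOT11 at 17.8 ± 3.92, CNOT1 at 9.74 ± 1.71, CNOT10 at 8.84 ± 8.34 and CNOT3 at 1.27 ± 0.646. Neighbours in that order overlapped, except that CNOT11 stood clear of CNOT1 and CNOT10 clear of CNOT3. In IVO MII the order was CNOT7 at 245 ± 13.9 TPM (SD, n = 2), CNOT8 at 86.4 ± 30.8, CNOT6L at 66.4 ± 2.66, CNOT11 at 48.4 ± 9.07, CNOT2 at 40.3 ± 12.6, CNOT10 at 16.6 ± 7.58, CNOT1 at 10.1 ± 4.18, CNOT6 at 7 ± 0.0281 and CNOT3 at 1.96 ± 1.13. There CNOT8 overlapped CNOT6L, CNOT11 overlapped CNOT2, and CNOT10 overlapped CNOT1, while the other neighbours were separate.

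Among these members CNOT8 led in GV oocytes at 72.5 ± 6.46 TPM (SD, n = 2), with CNOT7 overlapping it at 63.7 ± 8.41. CNOT11 (42.9 ± 4.6), CNOT2 (42.5 ± 3.79) and CNOT10 (42.0 ± 13.1) overlapped each other. CNOT1 at 20.8 ± 0.492, CNOT6L at 13.3 ± 1.86, CNOT6 at 3.18 ± 0.323 and CNOT3 at 0.905 ± 0.159 TPM followed without overlap. CNOT6L was thus below the scaffold gene in GV and above it in both kinds of MII oocyte. BTG4 stood apart from all subunits, at 7192 ± 1399 TPM in IVM MII (SD, n = 3), 7362 ± 2864 TPM in IVO MII and 2232 ± 206 TPM in GV (SD, n = 2 each).

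The catalytic genes took a larger share of the transcripts of the 9 CCR4-NOT members in MII than in GV oocytes. CNOT6, CNOT6L, CNOT7 and CNOT8 together made up 77.8%, 80.3% and 75.4% of the TPM of the 9 subunits in IVM MII, 80.2% and 75.4% in IVO MII, and 50.5% and 50.7% in GV. All MII libraries lay above GV, and IVM and IVO MII overlapped. These shares are given as a description, with no test. CNOT9 (listed as RQCD1) and CNOT4 are not in these shares or in the sums below. CNOT9 had 9.43 to 33.1 TPM in IVM MII, 15 and 45.3 in IVO MII, and 73.7 and 89.3 in GV. CNOT4 had 25.8 to 38.9 TPM in IVM MII, 24.6 and 51.8 in IVO MII, and 23.5 and 20 in GV. The summed level of the 9 genes was 224, 242 and 350 TPM in IVM MII and 468 and 577 TPM in IVO MII. In GV it was 320 and 284 TPM. On that scale the IVO MII sums were the highest, and those of IVM MII surrounded those of GV. TPM carries no TMM scaling between libraries. The median log2 fold change of all tested genes between IVM MII and GV was -0.10 with TMM and -0.80 with library totals alone. Whether the IVM MII sums would surround those of GV after TMM scaling was not tested. For CNOT7 and CNOT8 together the sums were 102, 107 and 174 TPM in IVM MII, 300 and 363 TPM in IVO MII, and 147 and 126 TPM in GV. For CNOT6 and CNOT6L together they were 71.9, 87.2 and 89.8 TPM in IVM MII, 75.3 and 71.5 TPM in IVO MII, and 14.9 and 18.0 TPM in GV. In TPM, the first of these pair sums set IVO MII apart from both other groups. The second set both kinds of MII oocyte apart from GV.

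**Figure D3:**
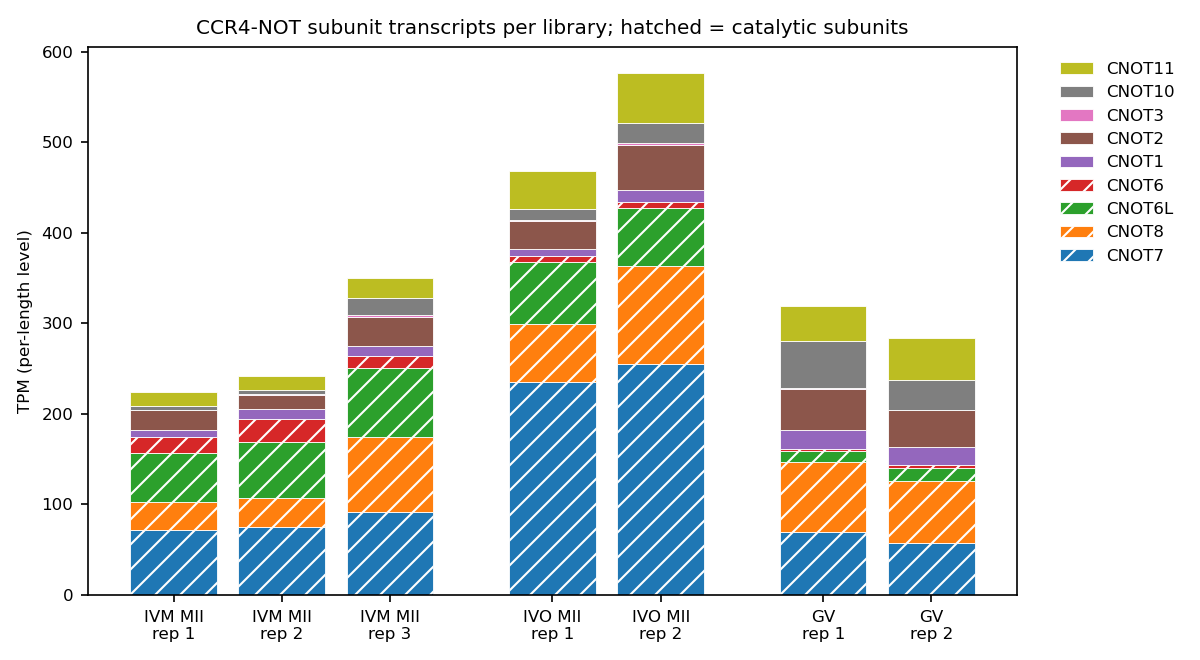
Stacked TPM (y axis) of the 9 CCR4-NOT subunit genes in each library (x axis), with catalytic subunits hatched and placed at the bottom of each bar. CNOT7 is the tallest block in both IVO MII libraries, and the hatched part is 75.4% to 80.3% of every MII bar, against 50.5% and 50.7% of the GV bars.

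The balance within each pair of catalytic paralogues was taken as a ratio within a library, which does not depend on scaling between libraries. None of the 6 comparisons of these ratios reached an exact permutation p under 0.05, and the group sizes allow none. CNOT7 to CNOT8, per length, was 2.4, 2.35 and 1.12 in IVM MII, 3.64 and 2.36 in IVO MII, and 0.904 and 0.850 in GV. Every MII library had more CNOT7 than CNOT8, and both GV libraries had less. On the log2 scale IVO MII differed from GV by 1.74 and IVM MII differed from GV by 1.08. The exact two-sided permutation p-values were 0.333 and 0.2. This test doubles the smaller tail, so both are the smallest values that these group sizes allow. IVM and IVO MII overlapped, with a difference of -0.66 (exact permutation p = 0.4). CNOT6L to CNOT6 was 3.09, 2.42 and 5.46 in IVM MII, 9.72 and 9.23 in IVO MII, and 4.04 and 4.27 in GV. CNOT6L was the more abundant in all 7 libraries, and IVO MII stood above IVM MII and GV, which overlapped. The log2 difference was -1.46 between IVM and IVO MII (exact permutation p = 0.2, the smallest possible). It was 1.19 between IVO MII and GV (0.333, the smallest possible) and -0.27 between IVM MII and GV (0.6). Reads that fit both genes of a pair could be assigned to either, and how the counting treated them is not given in the sources used here.

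**Figure D4:**
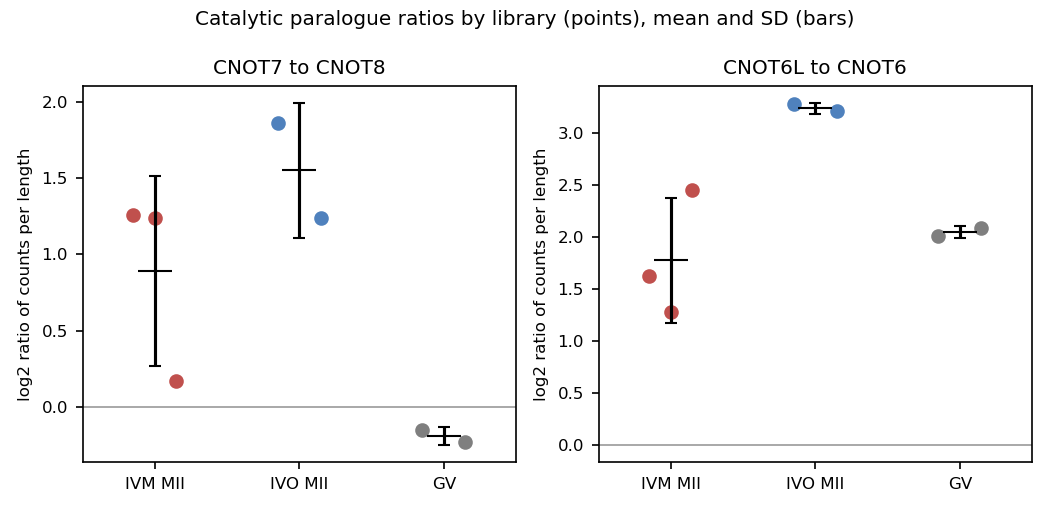
Log2 ratio of counts per length (y axis) of CNOT7 to CNOT8 and of CNOT6L to CNOT6 in each library (points) of IVM MII, IVO MII and GV, with the mean and SD (bars). CNOT7 to CNOT8 is above 0 in all MII libraries and below 0 in both GV libraries, and CNOT6L to CNOT6 is highest in IVO MII, at 3.28 and 3.21.

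The 10 genes did not follow a common pattern over the libraries. As a measure of likeness, profiles of log2(CPM + 1) over the 7 libraries were centred on their means, and the root mean square (RMS) difference between them was taken. The closest were CNOT2 and CNOT8, at 0.265, and BTG4 was closest to CNOT6L, at 0.38. Over 4832 other genes with a symbol and a mean of at least 20 CPM, the median RMS difference was 0.956 from BTG4, 1.00 from CNOT7 and 1.11 from CNOT6L. The genes most like BTG4 were LMBRD1 (0.154), ANLN (0.163), which encodes the cytokinesis protein anillin, and TMCO1 (0.166). Those most like CNOT7 were CBL (0.147), a ubiquitin ligase gene, PCYT1A (0.166), of phosphatidylcholine synthesis, and STK24 (0.185), a kinase gene. For CNOT6L they were TPP2 (0.0759), a peptidase gene, BDP1 (0.0761), a subunit gene of the RNA polymerase III factor TFIIIB, and REV3L (0.109), the catalytic subunit of DNA polymerase zeta. STK24, for example, had 235, 228 and 176 CPM in IVM MII, 550 and 561 CPM in IVO MII, and 112 and 121 CPM in GV. That is the order of CNOT7, with IVO MII highest and GV lowest.

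The rest of the pathway was followed in 5 lists with 45 genes, of which 44 were found and 41 were tested. Between IVM and IVO MII 0 of the 41 were called by edgeR, where 1.47% of all genes were. Limma voom and the newer edgeR fit also called 0. At an unadjusted edgeR p under 0.05, 3 were higher and 0 lower in IVM MII, where 12.3% of all genes were higher and 8.84% lower. DESeq2 called 2 higher and 0 lower, where it called 7.48% of all genes higher and 4.8% lower. Against GV, 13 of the 41 rose and 3 fell in IVO MII, where 14.6% of all genes rose and 13.5% fell, and 12 rose and 5 fell in IVM MII, where 18.5% rose and 17.8% fell. All lists were chosen with earlier results known, and nothing is read from their counts beyond these shares.

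Of 12 tested genes of decapping and of decay after deadenylation, 6 rose and 1 fell in IVO MII over GV (median log2 fold change 1.44), where 14.6% of all genes rose and 13.5% fell. In IVM MII over GV 6 rose and 2 fell (median 1.53), where 18.5% of all genes rose and 17.8% fell. LSM14A, a protein of stored mRNA particles, had 139, 144 and 107 CPM in IVM MII, 168 and 83.1 CPM in IVO MII, and 13.3 and 14.6 CPM in GV. It rose by 3.17 in IVO MII (SE 0.44, edgeR adjusted p = 0.00262) and by 3.22 in IVM MII (SE 0.42, edgeR adjusted p = 0.00162). PATL1, which links deadenylation to decapping, rose by 3.02 (SE 0.42) in IVO MII and by 2.46 (SE 0.39) in IVM MII. DCP1A, a decapping cofactor, rose by 2.61 (SE 0.45) in IVO MII and by 1.89 (SE 0.42) in IVM MII. The decapping enzyme gene DCP2 rose by 2.36 (SE 0.32) in IVO MII and by 2.11 (SE 0.31) in IVM MII. DCP1B fell by 1.86 in IVO MII and by 1.79 in IVM MII, and EDC3 fell by 2.98 in IVM MII. The DCP1B calls were held in 12 of 16 alternative settings each, with edgeR adjusted p up to 0.259 and 0.209, and that of EDC3 in 13, with up to 0.115. They were lost without GV replicate 1 for both genes, without GV replicate 2 for DCP1B, without IVM MII replicates 1 and 2 (for DCP1B in IVO MII, only 2) and, for DCP1B in IVO MII, without IVO MII replicate 1.

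Of 13 tested genes for RNA-binding proteins that can recruit CCR4-NOT to its targets, 5 rose and 0 fell in IVO MII over GV (median 1.35), where 14.6% of all genes rose and 13.5% fell, and 4 rose and 0 fell in IVM MII over GV (median 0.64), where 18.5% rose and 17.8% fell. At an unadjusted edgeR p under 0.05, and likewise with DESeq2, 7 were higher and 1 lower in IVO MII, and 5 were higher and 1 lower in IVM MII. Of all genes at that unadjusted p, 20.2% were higher and 21.8% lower in IVO MII, and 23.5% and 24% in IVM MII. DESeq2 called 17.5% of all genes higher and 20.3% lower in IVO MII, and 21% and 22.9% in IVM MII. TNRC6A, an Argonaute partner in microRNA silencing, had 192, 218 and 236 CPM in IVM MII, 297 and 220 CPM in IVO MII, and 59.9 and 63.4 CPM in GV. It rose in IVO MII by 2.07 (SE 0.33, edgeR adjusted p = 0.00342), with the call held in all 16 alternative settings. In IVM MII it rose by 1.81 (SE 0.31, edgeR adjusted p = 0.00319). Roquin genes rose too, RC3H2 by 2.29 in IVO MII and 1.90 in IVM MII, and RC3H1 by 1.61 in IVO MII and 2.48 in IVM MII. So did the Pumilio gene PUM2, by 1.96 in IVO MII and 2.56 in IVM MII. Of the 5 calls in IVO MII, 1 was left without GV replicate 1, without GV replicate 2 or with library totals alone, 2 without IVO MII replicate 1 and 3 without IVO MII replicate 2. In IVM MII, 0 of the 4 were left without GV replicate 1 and 2 without GV replicate 2. PUM2 in IVO MII was called in 8 of 16 alternative settings.

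Of 8 genes for other deadenylases or for proteins that resemble them, 1 rose and 2 fell in each comparison with GV. The median was 0.40 in IVO MII and 0.41 in IVM MII. These counts were near the shares of all genes, 14.6% and 13.5% in IVO MII and 18.5% and 17.8% in IVM MII. PAN3, the partner of the PAN2 nuclease, had 65.6, 56.1 and 54.7 CPM in IVM MII, 111 and 47.9 CPM in IVO MII, and 7.20 and 11.5 CPM in GV. It rose by 3.09 in IVO MII (SE 0.51, edgeR adjusted p = 0.00388) and by 2.65 in IVM MII (SE 0.48, edgeR adjusted p = 0.0039). NOCT (nocturnin), which resembles CCR4 enzymes, fell in MII. It had 6.44, 7.73 and 9.74 CPM in IVM MII, 10.3 and 16.2 CPM in IVO MII, and 82.3 and 64.6 CPM in GV, with log2 fold changes of -3.20 for IVM MII (SE 0.39, edgeR adjusted p = 0.00144) and -2.47 for IVO MII (SE 0.44, edgeR adjusted p = 0.00513). TOE1 fell as well, with 4 counts in all IVM MII libraries and 1 count in both IVO MII libraries, against 102 counts in both GV libraries. The level in GV over that in IVM MII was 27.1 (95% counting interval 10.3 to 102) and over that in IVO MII 71.8 (12.6 to 2864), where intervals cover counting error only. The TOE1 calls were held in 11 of 16 alternative settings in IVM MII and 10 in IVO MII. Losses came without either GV library, without IVM MII replicate 1 or 3 and without either IVO MII library, not all of them for both calls. Without GV replicate 1, PAN3 in IVM MII (edgeR adjusted p = 0.0515) and NOCT in IVO MII (0.0503) were not called.

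Of 3 further subunits or bound proteins of CCR4-NOT, the ubiquitin ligase gene CNOT4 rose by 1.24 in IVO MII (SE 0.36, edgeR adjusted p = 0.0319) and by 1.12 in IVM MII (SE 0.33, edgeR adjusted p = 0.0301). The gene listed as RQCD1, now called CNOT9, fell by 1.45 in IVM MII over GV (SE 0.48, edgeR adjusted p = 0.0449). It had 30.3, 48.2 and 78.6 CPM in IVM MII, 41.9 and 96.9 CPM in IVO MII, and 124 and 162 CPM in GV. All MII libraries lay below both GV libraries for RQCD1, and above them for CNOT4. The CNOT4 calls were held in 11 of 16 alternative settings each and that of RQCD1 in 12. With library totals alone CNOT4 was at 0.65 in IVO MII (edgeR adjusted p = 0.241) and at 0.40 in IVM MII (edgeR adjusted p = 0.398), and with the replicate block it was not called in IVM MII. All 3 calls were lost without either GV library and without IVM MII replicate 1, with that of RQCD1 lost also without IVM MII replicate 2 and that of CNOT4 in IVO MII without IVO MII replicate 2.

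In the BTG/TOB family, whose members can all bind CAF1-type exonucleases, none of the other 5 genes was called in any comparison by edgeR with every library and TMM scaling. TOB1 was called lower in IVO MII than in GV in several other settings, among them DESeq2, limma voom, the newer edgeR fit, no filter on low counts and library totals alone, and DESeq2 called TOB1 higher in IVM MII than in IVO MII. At an unadjusted edgeR p under 0.05, 2 of the 5 had more transcript in IVM MII than in IVO MII and 0 had less. The shares over all tested genes were 12.3% and 8.84%. Against GV, 0 rose and 1 fell in IVO MII, beside shares of 20.2% and 21.8%. In IVM MII 0 rose and 0 fell, beside shares of 23.5% and 24%. The median log2 fold change of the 5 was 1.66 between IVM and IVO MII, -0.37 between IVO MII and GV and 1.02 between IVM MII and GV. BTG1 had 11.6, 14.2 and 1.39 CPM in IVM MII, 4.43 and 0.308 CPM in IVO MII, and 2.33 and 2.15 CPM in GV. Those values differ widely within a group and lie far under those of BTG4.

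**Figure D5:**
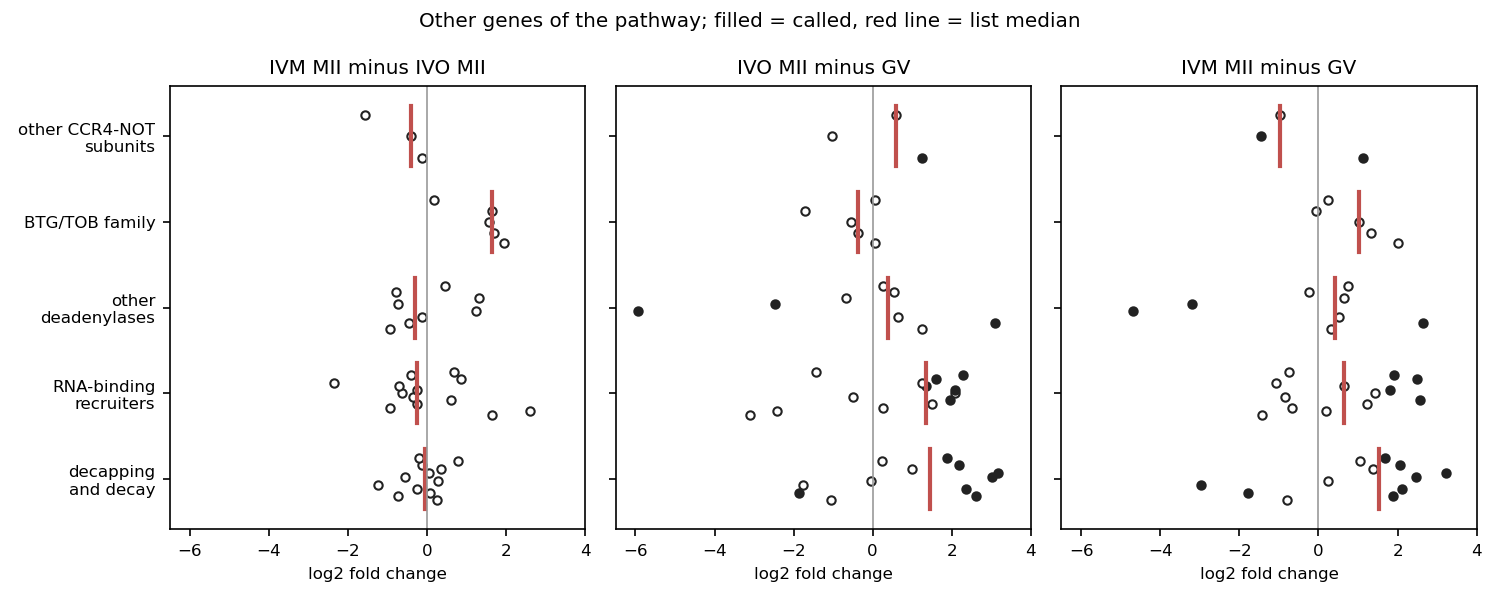
Log2 fold changes (x axis) of the 41 tested pathway genes in 5 lists (y axis) for IVM MII minus IVO MII, IVO MII minus GV and IVM MII minus GV; filled points were called by edgeR and red lines are list medians. Filled points appear in both comparisons with GV and none between IVM and IVO MII; the point furthest to the left in both, TOE1, has 4 or fewer MII counts, so its fitted value depends on the prior count.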

How the data were processed

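Poly(A)-primed full-length cDNA was amplified by PCR, tagmented and sequenced with paired ends on DNA nanoballs, per the labels' protocols. The authors deposited raw counts per gene with no normalization, and a gene length column. Trim Galore (0.6.7) for reads, the aligner Bowtie2 (2.4.5), the SAMtools suite (1.15.1), the counter featureCounts (2.0.1) and the package DESeq2 are named per the submitters' processing notes. Not given in the sources used here: genome build, strand setting, treatment of reads with several matches. Broken lines of 3 genes (10 lines) were left out, which left 28161 rows.

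The test on the deposited counts was the quasi-likelihood test of edgeR 4.0.16 in R 4.3.3, with TMM scaling, the filterByExpr filter and all 7 libraries in 1 fit without a replicate term. Calls were made two-sided at a Benjamini-Hochberg adjusted p under 0.05 over all tested genes. SE is the absolute log2 fold change over the square root of F, and 95% intervals use the test's degrees of freedom. TPM used the deposited lengths. Paralogue ratios were tested by exact permutation. Alternatives used DESeq2 1.42.0, limma 3.58.1, other scalings, no low-count filter and each library left out. Where that left a group with 1 library, the lone library was assumed to vary like the others. The fit was tested on simulated data. Python 3.11.15 and pandas 2.3.3 read the tables.

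The members, lists and naming rule were chosen with earlier results of these data known. All 10 members were named in every comparison, and up to 3 rising and 3 falling called genes per pathway list and comparison. A gene so named and called in both comparisons with GV has values given for both. BTG1, TNFAIP6 and other marker genes were named after their values were seen. Of the 45 pathway genes, YTHDF2 was not analysed here, and ZFP36L1, NANOS2 and NANOS3 did not pass the filter. TUT4, TUT7 and CNOT9 were matched by their older symbols ZCCHC11, ZCCHC6 and RQCD1.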

Additional observations from a re-analysis of the deposited data

Results flagged for a closer look

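CNOT7 differed between the kinds of MII oocyte in its change from GV. The log2 difference, tested directly as IVM MII against IVO MII, was -1.47 (edgeR adjusted p = 0.0401), with rises over GV of 0.97 in IVM MII and 2.44 in IVO MII. It was lower in 3 of 3 IVM MII libraries than in both IVO MII libraries. The edgeR adjusted p lay between 0.0222 and 0.14 over the edgeR and limma voom alternatives, and at 5.60e-05 with DESeq2.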

How the results depend on the processing

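Over 16 alternatives, 433 of 480 member fold changes kept their direction and side of the threshold, 18 lost a call, 18 gained a call and 11 changed sign, each of the 11 while uncalled. Sign changes were those of BTG4 and CNOT6L between IVM and IVO MII with upper quartile scaling (-0.05 and -0.04) and of CNOT2 between IVO MII and GV with library totals (-0.23). Without single libraries, BTG4 ranged from -0.49 to 0.80, CNOT6L from -0.22 to 0.33 and CNOT1 from -0.08 to 0.31 between IVM and IVO MII, and CNOT8 from -0.50 to 0.21 and CNOT2 from -0.42 to 0.02 between IVM MII and GV.

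Between IVM and IVO MII, 1 member was called, against 3 with DESeq2, 2 with the replicate block, 0 in a fit of the groups compared, and 0 to 5 without single libraries. All genes called numbered 241, against 731 without the filter, 2010 with DESeq2, 497 with limma voom, 774 with the newer edgeR fit, 1238 with the replicate block, 54 in a fit of the groups compared and 0 to 1277 without single libraries. The count was 0 without IVM MII replicate 1 or 2 (2703 and 2549 at an unadjusted edgeR p under 0.05), 22 without IVO MII replicate 2, 64 and 96 without GV replicates 2 and 1, 364 without IVO MII replicate 1 and 1277 without IVM MII replicate 3. With upper quartile scaling 127 were higher and 125 lower in IVM MII, against 146 and 95. Against GV, without single libraries, members called numbered 2 to 4 in IVO MII and 3 to 5 in IVM MII, and all genes called 1484 to 5517 and 2110 to 6716. With library totals 1340 rose and 3123 fell in IVO MII and 1608 rose and 4170 fell in IVM MII, against 2392 and 2204, and 3037 and 2912. The lowest counts of all genes against GV came without GV replicate 1. The causes were not tested.

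The labels do not say whether replicate numbers pair libraries. Deviations of same-numbered libraries correlated at 0.35 and -0.18 between IVM and IVO MII. They correlated at -0.17 and 0.11 between IVM MII and GV, and at -0.23 between IVO MII and GV. Per the file header, IVO MII replicate 2 bears the same number as IVM MII replicate 3, and their deviations correlated at 0.41. In a group of 2 libraries the deviations mirror each other, so these correlations cannot decide whether libraries were paired. The replicate block, which used the label numbers, added CNOT6 between IVM and IVO MII and CNOT10 between IVM MII and GV. The lowest member count in a library was 65; the part of depth in the calls was not tested.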

Other observations

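BTG4 transcripts outnumbered those of its CAF1-type partners by a factor that varied with the kind of oocyte. Per length, BTG4 over the sum of CNOT7 and CNOT8 was 76.4, 52.2 and 46.9 in IVM MII, 31.3 and 14.7 in IVO MII, and 14.2 and 18.9 in GV. All IVM MII libraries lay above all others, and IVO MII overlapped GV. The quantity was chosen after the values were seen and has no test.

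TOB1, an antiproliferative BTG/TOB family gene, had 145, 318 and 95.9 CPM in IVM MII, 72.4 and 45.6 CPM in IVO MII, and 157 and 232 CPM in GV. Its log2 fold change was 1.66 between IVM and IVO MII (SE 0.54, edgeR adjusted p = 0.135) and -1.72 between IVO MII and GV (SE 0.57, edgeR adjusted p = 0.0521). DESeq2 called it in both comparisons, and limma voom and the newer edgeR fit called it between IVO MII and GV.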
